A study of Mus musculus with 64 samples.

Results

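Nanog, Gata4, Fgfr1, Ascl2 and Cyp11a1 are genes by which the cell lineages of the mouse blastocyst are told apart, and their RNA was followed from the unfertilized egg to the blastocyst. The 5 genes were read from the 7 probes for which the platform's annotation gives one of these symbols and no other: 1 probe for Nanog, 2 for Gata4, 2 for Fgfr1, 1 for Ascl2 and 1 for Cyp11a1. These are 5 of the 3089 genes that have a probe with a single gene symbol, and 7 of the 4262 such probes among 22575 in all. A further 8 probes, annotated to a member gene together with another gene, were not used.

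The study hybridised total RNA of whole eggs and embryos on 64 arrays of 2 colours. In 28 of them the second channel held an RNA called Universal Control, and the first held unfertilized eggs, fertilized eggs, 2-cell, 4-cell or 8-cell embryos, morulae or blastocysts, with 4 arrays per stage. In the other 36 the second channel held an RNA called Universal Reference, and the first held 12 groups of 3 arrays: AM at 32, 43 and 54 h, AC at 32 and 43 h, CHX at 43 h, DMSO at 32 and 43 h, and Control at 21, 32, 43 and 54 h. Control embryos at 21 and 32 h are labelled as early and late 1-cell, and those at 43 and 54 h as early and late 2-cell. The labels do not spell out AM, AC or CHX, which are read here from general knowledge as α-amanitin (blocks RNA polymerase II), aphidicolin (blocks DNA polymerase) and cycloheximide (blocks translation), with DMSO as a solvent. They also give no start for the hours and no strain, genotype, dose or culture. No label says that replicate arrays came from separate cultures or animals, so p-values measure the spread between these arrays, which may be technical.

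A blastocyst has an outer trophectoderm, which founds the trophoblast of the placenta, and an inner cell mass that divides into pluripotent epiblast and primitive endoderm. Nanog, a homeodomain transcription factor, holds epiblast cells in the pluripotent state, while Gata4, a zinc finger transcription factor, is turned on as cells become primitive endoderm. Fgfr1 is the receptor through which inner cell mass cells answer Fgf4, the signal behind the choice between those fates. Ascl2 is a basic helix-loop-helix (bHLH) factor of trophoblast, and Cyp11a1 is the mitochondrial side-chain cleavage enzyme that starts steroid synthesis, known in the placenta from trophoblast giant cells.

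Nanog is the member whose promoter is known to carry a paired site for Oct4 and Sox2, and its only probe was called between 8-cell and 4-cell embryos in the fit without a block, so its upstream sequence is shown. That step coincides with a change between parts of the array set, and the call was lost with the part as a block. The 250 bases before its start in RefSeq (GRCm38.p6, plus strand, chr6:122707239-122707488) read, from 5′ to 3′, with the octamer motif and the Sox motif in capitals:
Nanog: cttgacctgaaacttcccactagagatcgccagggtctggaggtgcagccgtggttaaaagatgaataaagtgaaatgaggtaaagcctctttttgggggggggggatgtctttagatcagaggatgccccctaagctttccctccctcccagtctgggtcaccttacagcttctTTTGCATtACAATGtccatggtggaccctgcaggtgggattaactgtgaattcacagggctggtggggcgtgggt
The motifs searched, on both strands, were ATGCAAA (octamer, here on the other strand as TTTGCAT, 75 to 69 bases before the start) and ACAATG (Sox, 67 to 62 bases before it), and they do not overlap. The E-box CANNTG, the site of bHLH factors such as Ascl2, was also searched, and it occurs once in this window, 45 to 40 bases before the start. Of 32851 upstream windows of the same length, 4.12% hold the octamer, 10.7% the Sox motif and 66.2% the E-box. The 2 in this order within 3 bases of each other are found in 3 windows (0.00913%), 2 of which belong to Nanog. The upstream windows of Ascl2 and Cyp11a1 hold neither the octamer nor the Sox motif, and they hold 2 and 3 E-boxes. These matches describe letters in a window and were not set against binding data.

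Values are log2 ratios of embryo over reference RNA, so 0 means equal signal in both channels and 1 a doubling. The direction is likely but not settled, because the labels do not name the dyes. It rests on oocyte genes: all 5 probes of the 4 measured ones were lower in blastocysts than in unfertilized eggs, from -4.40 for Btg4, -3.19 for Kit and -2.29 for Zp2 to -0.52 for a Bmp15 probe. If the sign were opposite, higher would read lower throughout. Since each probe has its own zero, levels of different probes are not compared. Cumulus and granulosa cells around eggs could be checked by 1 of 15 marker genes, Inhbb, which passed no test between stages. In whole embryos, fewer cells of a type and less RNA per cell cannot be told apart.

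The 28 stage arrays fall into 2 parts that no label records and that were seen in earlier results of these data. Unfertilized egg array 4, morula arrays 3 and 4 and all 8-cell and blastocyst arrays form the second part (11 arrays), and the other 17 arrays the first. The difference of egg 4 from eggs 1 to 3 and that of morulae 3 and 4 from morulae 1 and 2 correlated at 0.601 across probes. The step between 4-cell and 8-cell embryos coincides with the step between the parts. The called 8-cell against 4-cell differences of the members are therefore given also with the array part as a block. Only the unfertilized eggs and morulae inform that block, and not every longer comparison across the step is given with it.

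Over the 7 stages, 4 of the 7 member probes differed by limma's F test at an adjusted p under 0.05: Nanog, Gata4 probe 13134 and both Fgfr1 probes. Of all probes, 64.3% did. With the array part as a block, 1 member probe, Fgfr1 12918, passed (adjusted p = 2.86e-07), against 40.9% of all probes. The Ascl2 and Cyp11a1 probes and Gata4 probe 5300 passed neither fit, with adjusted p of 0.270, 0.731 and 0.362 without the block.

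**Figure D1:**
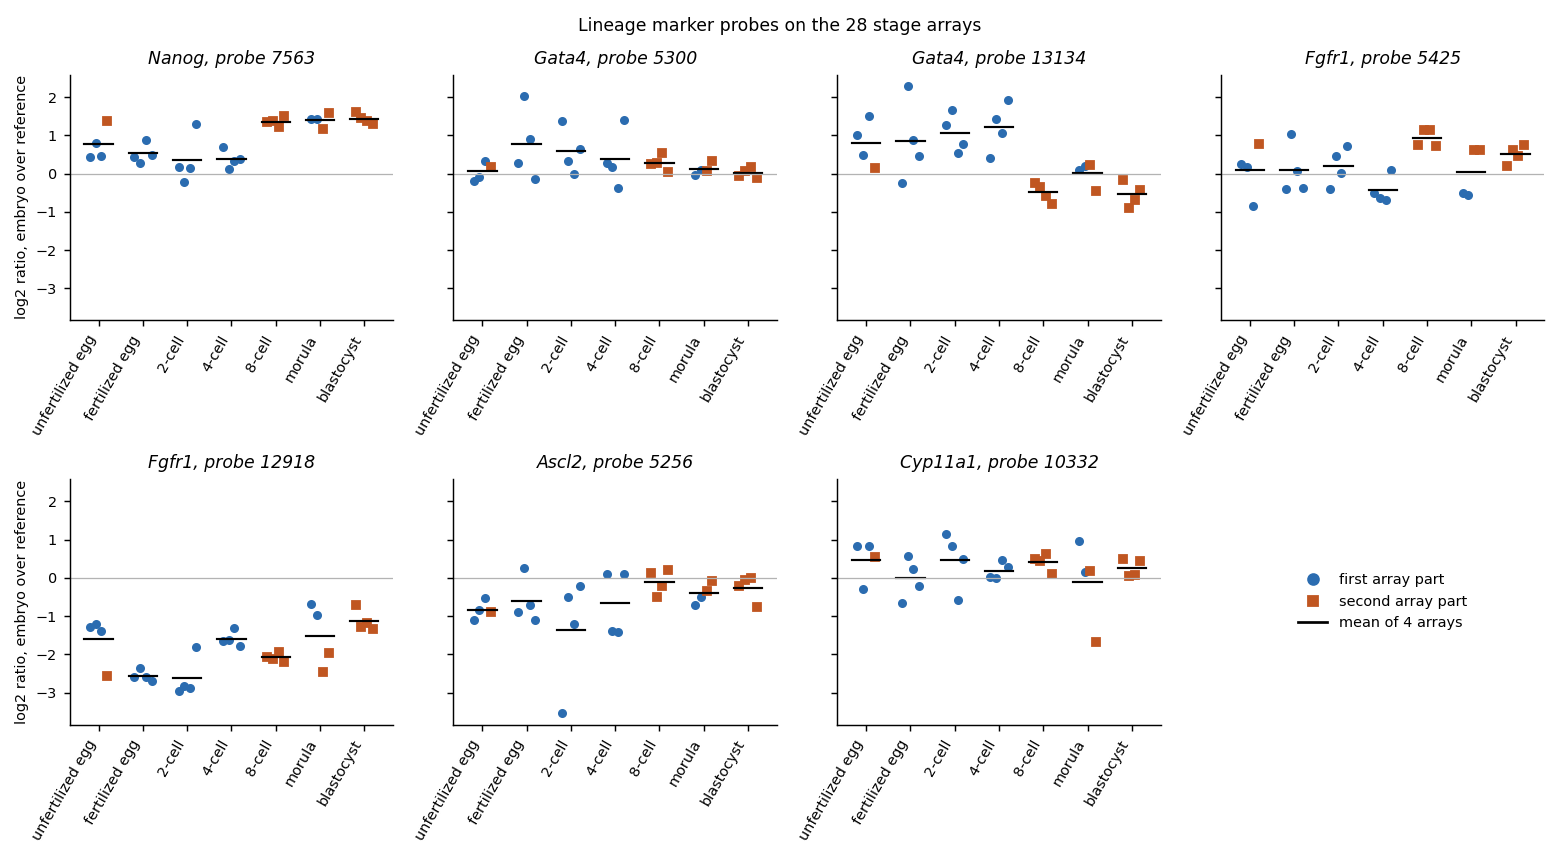
Log2 ratio of embryo over reference on each of the 28 stage arrays, 1 panel per member probe, with stages in order on the x axis. Points are arrays (blue circles for the first array part, orange squares for the second) and bars are means of 4 arrays; Nanog lies at 1.17 or above in every 8-cell, morula and blastocyst array, and Fgfr1 12918 shows morulae split by array part.

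The inner cell mass marker Nanog read lower on most early arrays than from the 8-cell stage on, a step that coincides with the change of array part. Its 4 arrays, in order of replicate number, read 0.43, 0.79, 0.46 and 1.38 in unfertilized eggs. They read 0.44, 0.29, 0.89 and 0.50 in fertilized eggs, and 0.18, -0.22, 0.15 and 1.30 in 2-cell embryos. Egg array 4, the only egg array of the second part, and 2-cell array 4, of the first part, thus stood well above their groups. The 8-cell arrays read 1.36, 1.37, 1.23 and 1.50, and the 4-cell arrays 0.70, 0.11, 0.34 and 0.38. Morulae read 1.42, 1.42, 1.17 and 1.59, and blastocysts 1.60, 1.47, 1.38 and 1.29. All 12 arrays of these last 3 stages lay above every 4-cell array, with no overlap. The order of the means ran from 0.35 ± 0.66 (SD, n = 4) in 2-cell and 0.38 ± 0.24 in 4-cell embryos through 0.53 ± 0.26 in fertilized and 0.77 ± 0.44 in unfertilized eggs to 1.36 ± 0.11 in 8-cell embryos, 1.40 ± 0.17 in morulae and 1.43 ± 0.13 in blastocysts. Neighbours in that order differed by less than their spread except at the gap between unfertilized eggs and 8-cell embryos, where egg 4 still overlapped.

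Between 8-cell and 4-cell embryos the Nanog difference was 0.98 ± 0.25 (SE, 1.97-fold; 95% interval 0.46 to 1.50; limma adjusted p = 0.00306). At this step 3 of the 7 member probes passed, against 41.1% of all probes, so the share called is close to the background. Morulae were 1.02 ± 0.25 above 4-cell embryos (2.02-fold, limma adjusted p = 0.00767), the 1 member probe of 7 called there, against 10.8% of all probes. With the array part as a block these differences were 0.65 (interval -0.08 to 1.38; limma adjusted p = 0.494) and 0.85 (interval 0.29 to 1.42; adjusted p = 0.0598), so both lost the call. In that fit 2.56% and 7.61% of all probes passed at the 2 steps. Within the first part alone, morulae 1 and 2 were 1.04 above the 4-cell arrays (interval 0.34 to 1.74, adjusted p = 0.0976), a difference as large as that over all arrays, where 5.19% of all probes passed. The Nanog mean in morulae was 1.42 in the first part and 1.38 in the second, while in unfertilized eggs it was 0.56 in the first part and 1.38 in the single array of the second.

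From the 8-cell stage on, Nanog RNA showed no difference that these arrays could resolve. Blastocysts differed from 8-cell embryos by 0.07 (95% interval -0.45 to 0.59), and within the second part alone, which holds both stages whole, by the same 0.07 with an interval of -0.23 to 0.37. Blastocysts were 0.67 above unfertilized eggs (1.59-fold, limma adjusted p = 0.0477), and 2 of 7 member probes passed this comparison, against 29.5% of all probes. The adjusted p lay between 0.0585 and 0.153 when any array other than egg 4 was left out, and it was 0.00745 without egg 4. Against egg 4 alone, within the second part, the difference was 0.05 (interval -0.41 to 0.52).

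**Figure D2:**
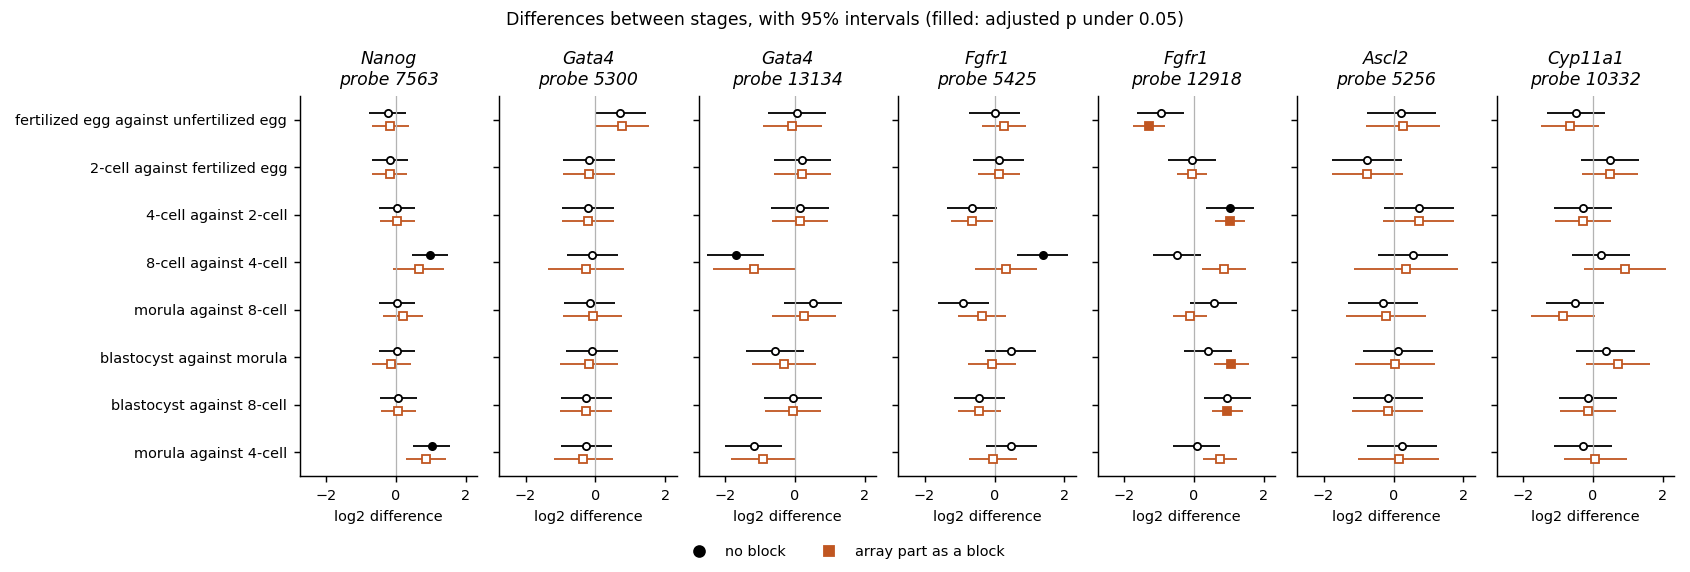
Log2 differences between stages (x axis) for each member probe, with 95% intervals from limma, for 8 comparisons on the y axis. Black circles are the fit without a block and orange squares the fit with the array part as a block, filled where the adjusted p is under 0.05; for Nanog the 8-cell against 4-cell difference is 0.98 without the block and 0.65 with it.

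The primitive endoderm marker Gata4 was not called higher in blastocysts on either of its probes. Probe 13134 had its higher stage means in eggs to 4-cell embryos and its lower ones from the 8-cell stage on. It read -0.25, -0.36, -0.58 and -0.80 in 8-cell arrays, against 0.42, 1.43, 1.06 and 1.92 in 4-cell arrays. Those groups did not overlap. Morulae read 0.11, 0.21, 0.23 and -0.47. Blastocysts read -0.16, -0.91, -0.69 and -0.43, against 1.02, 0.49, 1.51 and 0.14 in unfertilized eggs. Every blastocyst array lay below every egg array, although egg 4 came closest at 0.14. Stage means ran from -0.55 ± 0.33 (SD, n = 4) in blastocysts and -0.49 ± 0.24 in 8-cell embryos through 0.02 ± 0.33 in morulae to 0.79 ± 0.60 in unfertilized eggs, 0.85 ± 1.08 in fertilized eggs, 1.06 ± 0.51 in 2-cell and 1.21 ± 0.64 in 4-cell embryos. The 4 earliest stages differed from each other by less than their spread, as did 8-cell embryos and blastocysts.

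On probe 13134 the 8-cell level was 1.70 ± 0.40 log2 units below the 4-cell level (difference -1.70, 3.25-fold, limma adjusted p = 0.00141). The blastocyst against egg difference was -1.34 ± 0.40 (2.53-fold, limma adjusted p = 0.0115), and without egg array 3 it was -1.10 (adjusted p = 0.0617). With the array part as a block the 8-cell against 4-cell difference was -1.17 (95% interval -2.36 to 0.01, adjusted p = 0.415). The blastocyst against egg difference was then -0.95 (interval -1.98 to 0.09, adjusted p = 0.227), so both calls were lost in that fit. Morulae were 1.19 below 4-cell embryos on this probe (difference -1.19, limma adjusted p = 0.0560), and without 4-cell array 1 the difference was -1.45 (adjusted p = 0.0277). Within the first part that difference was -1.05 (interval -2.30 to 0.20).

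Gata4 probe 5300 passed no test between stages. Its values lay between -0.18 and 0.33 in unfertilized eggs and -0.14 and 2.02 in fertilized eggs. They lay between 0.00 and 1.36 in 2-cell, -0.37 and 1.39 in 4-cell and 0.03 and 0.54 in 8-cell embryos, between -0.04 and 0.33 in morulae and between -0.12 and 0.17 in blastocysts. The stages overlapped, and the early ones spread most. Between 8-cell and 4-cell embryos it differed by -0.09, with an interval of -0.83 to 0.64 that does not reach the value of probe 13134. The 2 Gata4 probes correlated at 0.535 over the 28 arrays, which share the reference and the array parts. In the fit with the array part as a block, the interval of probe 13134, -2.36 to 0.01, covers the -0.09 of probe 5300, and the probes were not tested against each other. Which transcripts each probe detects is not given in the sources used here.

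Fgfr1, the FGF receptor, was read by 2 probes that did not run together, with a correlation of -0.202 over the 28 arrays. On probe 5425 the 8-cell arrays read 0.74, 1.14, 1.14 and 0.72, against -0.50, -0.63, -0.70 and 0.08 in 4-cell arrays. The 8-cell arrays were all higher. Morulae read -0.50 and -0.57 in the first array part and 0.62 and 0.62 in the second, a split as wide as the step between stages. The remaining stages averaged 0.08 in unfertilized and 0.08 in fertilized eggs, 0.20 in 2-cell embryos and 0.51 in blastocysts, with overlapping arrays. The 8-cell against 4-cell difference was 1.37 ± 0.35 (2.59-fold, limma adjusted p = 0.00285) without the block. With it, the difference was 0.32 (95% interval -0.56 to 1.21, adjusted p = 0.870). The egg arrays moved the same way on this probe, with 0.77 in the egg array of the second part and a mean of -0.15 in those of the first. Over the 7 stages its adjusted p was 0.0401, and it rose to between 0.0539 and 0.101 when any of 10 arrays (4-cell 1, 2 or 3, any 8-cell array, or blastocyst 2, 3 or 4) was left out.

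Fgfr1 probe 12918 was the only member probe whose F test over the stages passed both with and without the array part as a block. That test asks only whether stages differ, so the order of the stages need not be the same in both fits. In unfertilized eggs it read -1.28, -1.21, -1.39 and -2.57, the last being the array of the second part. Fertilized eggs read -2.58, -2.35, -2.61 and -2.71, and 2-cell embryos -2.97, -2.83, -2.89 and -1.80. The lowest stage means were thus those of fertilized eggs and 2-cell embryos, although egg array 4 lay among them and 2-cell array 4 above. The 4-cell arrays read -1.65, -1.62, -1.32 and -1.79, all above the 2-cell arrays, with 2-cell array 4 just under the lowest of them. The 8-cell arrays read -2.06, -2.12, -1.95 and -2.20. Blastocysts read -0.70, -1.27, -1.19 and -1.33, all above the 8-cell arrays. Morulae read -0.68 and -0.96 in the first part and -2.47 and -1.97 in the second, again a wide split. The second-part arrays of both mixed stages were lower on this probe, the reverse of probe 5425.

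Between fertilized and unfertilized eggs the difference on probe 12918 was -0.95 ± 0.33 over all arrays (limma adjusted p = 0.157), where 0 of 7 member probes passed (1 at an unadjusted p under 0.05), against 0.766% of all probes. Within the first part, without egg 4, it was -1.27 ± 0.24 (2.41-fold, limma adjusted p = 0.0200), the only member probe of 7 to pass, against 1.28% of all probes. From fertilized egg to 2-cell embryo the difference was -0.06 (95% interval -0.74 to 0.62), 0 of 7 member probes passed (0 unadjusted), and 27.4% of all probes did. In 4-cell against 2-cell embryos the probe was 1.03 ± 0.33 higher (2.04-fold, limma adjusted p = 0.0373), 1 of 7 member probes passed, and 13.6% of all probes did. All arrays of that comparison lie in the first part, and a fit within it gave the same 1.03 (adjusted p = 0.00728), with 13.1% of all probes called. In the fit over all arrays the call rests on each of them: leaving out any array but 2-cell 4 brought the adjusted p to between 0.0598 and 0.105, and without 2-cell 4 the difference was 1.30 (adjusted p = 0.00706).

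The blastocyst against 8-cell difference on probe 12918 was 0.96 ± 0.33 (1.94-fold, 95% interval 0.28 to 1.63). Its limma adjusted p over all arrays was 0.136, and 0 of 7 member probes passed (1 unadjusted), against 3.69% of all probes. Within the second part, which holds all 8 arrays of both stages, the same difference had a smaller spread (0.96 ± 0.17, limma adjusted p = 0.00326). There 1 of 7 member probes passed, against 16.8% of all probes. Against the 2 morulae of the second part, blastocysts were 1.10 ± 0.21 higher (limma adjusted p = 0.0196), again 1 of 7, against 2.36% of all probes. Over all arrays limma called 0 of 7 for blastocysts against morulae (0 unadjusted), where 1.33% of all probes passed. It called 0 of 7 for morulae against 8-cell embryos (1 unadjusted), where 4.88% passed. Without morula array 3, probe 5425 was 1.09 lower in morulae than in 8-cell embryos (difference -1.09, limma adjusted p = 0.0436). This was the only 1 of 8 fits without 1 array to pass, and the differences ran from -1.09 to -0.69 (adjusted p up to 0.367). Morula array 3 belongs to the second part, like all 8-cell arrays. On this probe morulae averaged -0.54 in the first part and 0.62 in the second, against 0.94 in 8-cell embryos. The stage means of probe 12918 ran from -2.62 ± 0.55 in 2-cell embryos, -2.56 ± 0.15 in fertilized eggs and -2.08 ± 0.10 in 8-cell embryos through -1.61 ± 0.64 in unfertilized eggs, -1.59 ± 0.20 in 4-cell embryos and -1.52 ± 0.84 in morulae to -1.12 ± 0.29 in blastocysts. Of neighbours in that order, only fertilized eggs and 8-cell embryos had arrays that did not overlap. These means carry no block. All 8-cell and blastocyst arrays lie in the second part, which read lower on this probe in both mixed stages. The place of 8-cell embryos and blastocysts relative to the other stages is therefore not settled by this order.

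The trophoblast markers showed no difference between stages that passed the test. Ascl2 averaged -0.84 ± 0.24 (SD, n = 4) in unfertilized eggs, -0.61 ± 0.61 in fertilized eggs, -1.37 ± 1.51 in 2-cell, -0.65 ± 0.87 in 4-cell and -0.10 ± 0.32 in 8-cell embryos, -0.41 ± 0.27 in morulae and -0.27 ± 0.35 in blastocysts. The wide spread at the 2-cell stage came from array 1 at -3.55, against -0.51, -1.21 and -0.22 in the others. Ascl2 read -0.21, -0.07, -0.01 and -0.77 in blastocysts, against 0.12, -0.50, -0.21 and 0.20 in 8-cell embryos, and the groups overlapped. That difference was -0.17, with a 95% interval of -1.17 to 0.83, so a change of up to about 1 log2 unit either way was not resolved.

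Cyp11a1 was near the reference on average at every stage. It averaged 0.47 ± 0.53 in unfertilized eggs, -0.01 ± 0.54 in fertilized eggs, 0.47 ± 0.76 in 2-cell, 0.19 ± 0.23 in 4-cell and 0.41 ± 0.22 in 8-cell embryos, -0.10 ± 1.11 in morulae and 0.26 ± 0.24 in blastocysts. Morula array 4, at -1.67, set the low mean there, against 0.95, 0.14 and 0.19 in the other morulae. Blastocysts read 0.48, 0.04, 0.08 and 0.45, against 0.49, 0.44, 0.62 and 0.11 in 8-cell embryos. The difference was -0.15 (interval -0.98 to 0.68). For both genes neighbours in the order of the means overlapped at every step.

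The lineages were compared by their change over the last step, between blastocysts and 8-cell embryos. The changes were 0.07 for Nanog, -0.05 and -0.26 for the Gata4 probes 13134 and 5300, 0.96 and -0.43 for the Fgfr1 probes 12918 and 5425, -0.17 for Ascl2 and -0.15 for Cyp11a1. The Fgfr1 probes thus differed in direction. The planned comparison of 10 gene pairs took the Gata4 and Fgfr1 probe with the lowest F test p over these same stages, so its p-values for pairs that hold either gene are not used. Of the 3 pairs of genes with 1 probe, the change of Nanog exceeded that of Ascl2 by 0.24 (exact permutation p = 0.257, two-sided, 4 blastocyst against 4 8-cell arrays) and that of Cyp11a1 by 0.22 (exact p = 0.343). The change of Ascl2 minus that of Cyp11a1 was -0.02 (exact p = 0.943). Adjusted over the 10 pairs by Benjamini-Hochberg, these p-values were 0.514, 0.571 and 0.943, and the smallest p the design allows is 0.0286. A divergence of the inner cell mass marker from the trophoblast markers between the 8-cell stage and the blastocyst was therefore not resolved on these probes.

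Other markers of the same lineages were drawn from lists that include the members. Of 31 inner cell mass and pluripotency genes, 10 were measured by 14 probes of a single symbol. Between blastocysts and 8-cell embryos 2 of the 14 were higher and 0 lower: Lefty1, an inhibitor of Nodal signalling, at 1.80 ± 0.34 (3.48-fold) and Stat3, the transcription factor of LIF signalling, at 1.42 ± 0.23 (2.67-fold; limma adjusted p of 0.00135 and 0.000336). Of all probes 3.69% passed at that step, 752 higher and 80 lower. The list's median difference was 0.07, against -0.08 over all probes. Both genes were also called with the array part as a block and within the second part. At the 8-cell against 4-cell step, where 41.1% of all probes passed, 2 of the 14 were higher and 3 lower. Nanog and the pluripotency factor Tfcp2l1 (1.37 ± 0.28) were the higher ones. The lower ones were the chromatin-associated Dppa4 (4.01-fold), the maternal factor Dppa3 (-1.67 ± 0.32) and Stat3 (-0.63 ± 0.23). Stat3 was thus called lower at this step and higher at the later one.

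Of 28 primitive endoderm genes, 14 were measured by 15 probes, and 3 probes were higher in blastocysts than in 8-cell embryos and 0 lower, with neither Gata4 probe among them. Of all probes 3.69% passed. They read basement membrane subunits: Lamb1 (1.66 ± 0.47, 3.16-fold), Lamc1 (1.43 ± 0.41, 2.70-fold, just past the threshold) and Col4a2 (1.10 ± 0.27, 2.15-fold). These subunits are made by other cells too. The list's median difference was 0.40, against -0.08 over all probes. All 3 were also called with the array part as a block and within the second part. At the 8-cell against 4-cell step 7 of the 15 passed, 4 higher and 3 lower, a share near the 41.1% of all probes, with the collagen chaperone Serpinh1 at 2.13 ± 0.45 and Gata4 13134 and the transthyretin gene Ttr (-1.33 ± 0.40) at the low end. Fst, a secreted inhibitor of activin, was higher (0.94 ± 0.27).

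Of 34 trophectoderm and trophoblast genes, 7 were measured by 11 probes, and 0 passed between blastocysts and 8-cell embryos. Of all probes 3.69% passed at that step, and 2587 of 22575 had an unadjusted limma p under 0.05. The list's median difference was 0.17, against -0.08 over all probes. Within the second part 1 of the 11 was lower and 0 higher, where 16.8% of all probes passed. At the 8-cell against 4-cell step 1 was higher and 3 lower, where 41.1% of all probes passed. Both probes of Hand1, a bHLH factor of trophoblast giant cells, were lower (-1.31 ± 0.24 and -1.35 ± 0.21), while the probes of Yap1, the Hippo pathway coactivator, went opposite ways (-2.21 ± 0.27 and 0.75 ± 0.28). With the array part as a block 1 of these calls held, the Yap1 fall at -1.52 ± 0.34 (limma adjusted p = 0.0121), and none of the inner cell mass or primitive endoderm calls at that step did.

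The FGF pathway around Fgfr1 was called about as often as probes in general at the 8-cell stage. Of its 38 genes, 14 were measured by 19 probes, and 4 were higher and 5 lower in 8-cell than in 4-cell embryos, where 41.1% of all probes passed. None of the 19 passed at that step with the array part as a block. The inhibitors of the pathway Spred2 (1.59 ± 0.29) and Spry1 (1.36 ± 0.31) were higher, as was Fgfr1 5425, and one of the probes of the kinase Map2k1 (-1.04 ± 0.40) was lower. The list's median difference was -0.25, against -0.06 over all probes. In blastocysts against 8-cell embryos 0 of the 19 passed over all arrays, where 3.69% of all probes did, with a median of -0.06 against -0.08. With the array part as a block 1 was higher and 0 lower, where 1209 of 22575 probes passed. Within the second part 1 was higher and 1 lower, where 16.8% of all probes passed.

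The partners of Ascl2 and Cyp11a1 were measured by fewer probes. Of 12 bHLH partners and inhibitors, 7 were measured by 13 probes; 2 probes were higher and 6 lower at the 8-cell stage, where 41.1% of all probes passed, with a median of -0.77 against -0.06 over all probes. Among them the E protein gene Tcf3, whose product pairs with Ascl2-type factors, was at -2.28 ± 0.39 (4.87-fold lower). Its relative Tcf12 was also lower on 1 of its 2 probes (-1.16 ± 0.35), while the probes of Tcf4 disagreed (-1.22 ± 0.41, -0.77 ± 0.26 and 0.94 ± 0.36), and the list shares Hand1 with the trophoblast list. Of 18 genes of steroid synthesis, 3 were measured by 5 probes, and 2 of these passed at that step, a share near that of all probes. The ferredoxin gene Fdx1, whose product passes electrons to Cyp11a1, was higher at 0.62 ± 0.18. Of 3 probes of the cholesterol carrier gene Stard4, 1 passed (1.35 ± 0.54), while the others were at 1.79 ± 0.74 (limma adjusted p = 0.0561) and -0.09 ± 0.27. None of the bHLH or steroid probes passed at that step with the array part as a block. Between blastocysts and 8-cell embryos 0 probes of the bHLH and steroid lists passed over all arrays, against 3.69% of all probes. Within the second part 2 of the 5 steroid probes were higher, where 16.8% of all probes passed.

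**Figure D3:**
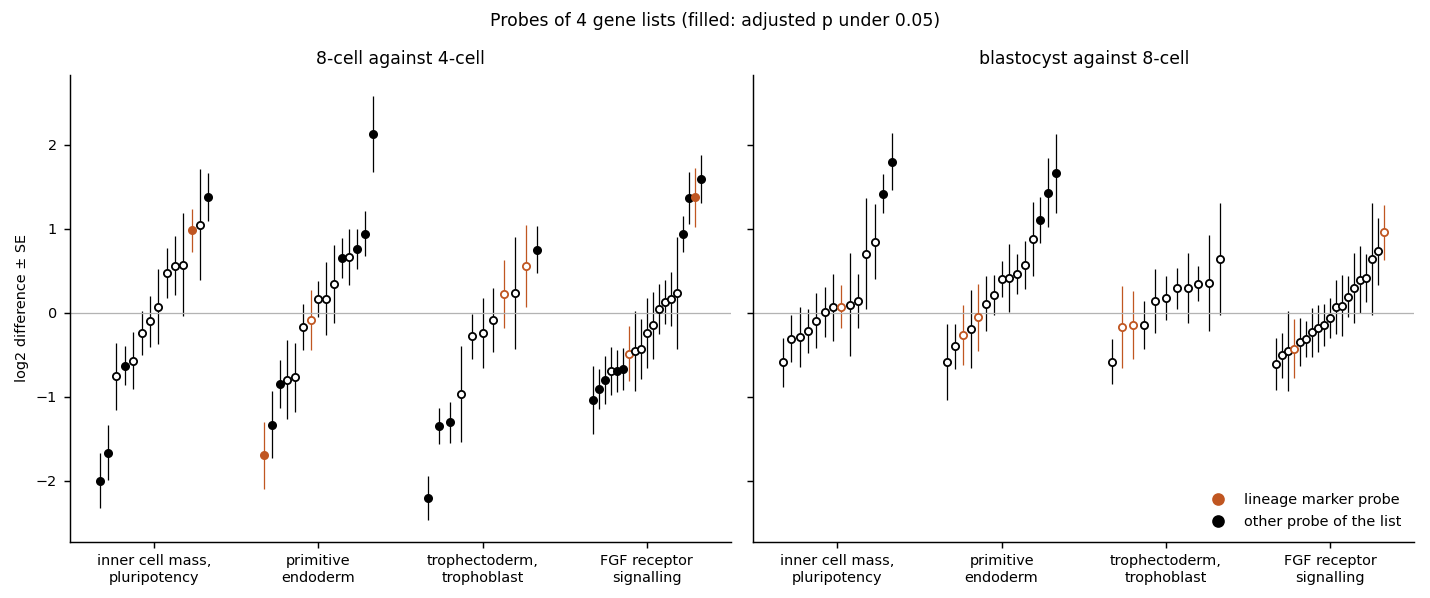
Log2 difference ± SE (y axis) of each probe of 4 gene lists, sorted by value within each list, for 8-cell against 4-cell embryos (left) and blastocysts against 8-cell embryos (right). Orange marks the lineage marker probes and filled points an adjusted p under 0.05 in the fit without a block; on the right the filled points are Lefty1, Stat3, Col4a2, Lamc1 and Lamb1.

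In 1-cell and 2-cell embryos, 0 of the 7 member probes passed limma's test in any of 11 comparisons between treatments or hours. At an unadjusted p under 0.05 there were 2 member probes for Control at 32 h against 21 h and 1 each for AM at 54 h, AC at 43 h and DMSO at 43 h. For AM against Control, 0% of all probes passed at 32 h (475 of 22575 at an unadjusted limma p under 0.05), 0% at 43 h (982 unadjusted) and 6.45% at 54 h. For AC against DMSO the share was 0% at 32 h (424 unadjusted) and 0.204% at 43 h, and for CHX against Control at 43 h it was 2.25%. For DMSO against Control 0.656% passed at 32 h and 0% at 43 h (1655 unadjusted). For Control embryos themselves 0.315% passed for 32 h against 21 h, 3.6% for 43 h against 32 h and 4.08% for 54 h against 43 h. At most of these comparisons, then, few probes of any kind passed.

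Fgfr1 probe 12918 came closest. It read -2.18, -2.07 and -1.07 in AM embryos at 54 h, against -2.80, -2.43 and -2.82 in Control embryos at 54 h. The groups did not overlap, and AM array 3 lay farthest from the controls. The difference was 0.91 ± 0.28 (1.88-fold, 95% interval 0.33 to 1.49, limma adjusted p = 0.0509). It was 1.11 (adjusted p = 0.0238) without AM array 1, 1.06 (adjusted p = 0.0479) without AM array 2 and 0.56 (adjusted p = 0.387) without AM array 3. The AM against Control difference at 54 h exceeded that at 43 h by 0.85 (limma interaction, adjusted p = 0.470). In Control embryos the probe averaged -1.32 ± 0.38 (SD, n = 3) at 21 h, -2.05 ± 0.13 at 32 h, -2.40 ± 0.27 at 43 h and -2.68 ± 0.22 at 54 h. The 21 h arrays lay above the later ones, but the 32 h against 21 h difference of -0.72 had an adjusted p of 0.409.

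Nanog stayed close to the reference in these early embryos, with group means from -0.26 to 0.47. Under AM at 54 h it read -0.11, 0.11 and -0.79, against 0.00, 0.13 and 0.17 in Control embryos at 54 h, and the groups overlapped. That difference was -0.36 (95% interval -0.87 to 0.14). In AC embryos at 43 h it read 0.62, -0.22 and -0.79, against 0.41, 0.16 and -0.02 in DMSO embryos at 43 h. The groups overlapped, with means of -0.13 and 0.18, and the difference was not called. Without AC array 1 it was -0.69 (limma adjusted p = 0.0403), the only 1 of 6 fits without 1 array to pass. Over these fits the difference ran from -0.69 to 0.02, with adjusted p up to 0.990. Zfp42, another pluripotency gene of the same list, was on 1 of its 2 probes at -5.22 ± 0.85 under AM at 54 h (limma adjusted p = 0.000228). It was the only 1 of that list's 14 probes to pass there, against 6.45% of all probes.

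Gata4 probe 13134 lay above the reference in all 12 groups, with means from 0.81 to 2.17, and its AM against Control difference at 54 h was 0.18 (interval -0.44 to 0.79). Of the primitive endoderm probes, 3 of 15 were lower under AM at 54 h: Col4a2 (-0.98 ± 0.19), the lipid carrier gene Apoe (-0.76 ± 0.22) and Col4a1 (-0.69 ± 0.20). Of all probes 6.45% passed there, 478 higher and 979 lower. Cyp11a1 was the most scattered member here. It averaged -1.82 ± 0.40 in Control embryos at 54 h, against -0.40 ± 0.61 at 43 h, with no overlap, but the difference of -1.42 had an interval of -3.04 to 0.20. Under AM at 54 h it read -1.91, 0.10 and -3.48, which spans the Control values. The Ascl2 difference between DMSO and Control embryos at 43 h was -0.80 (limma adjusted p = 0.589), with no overlap.

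**Figure D4:**
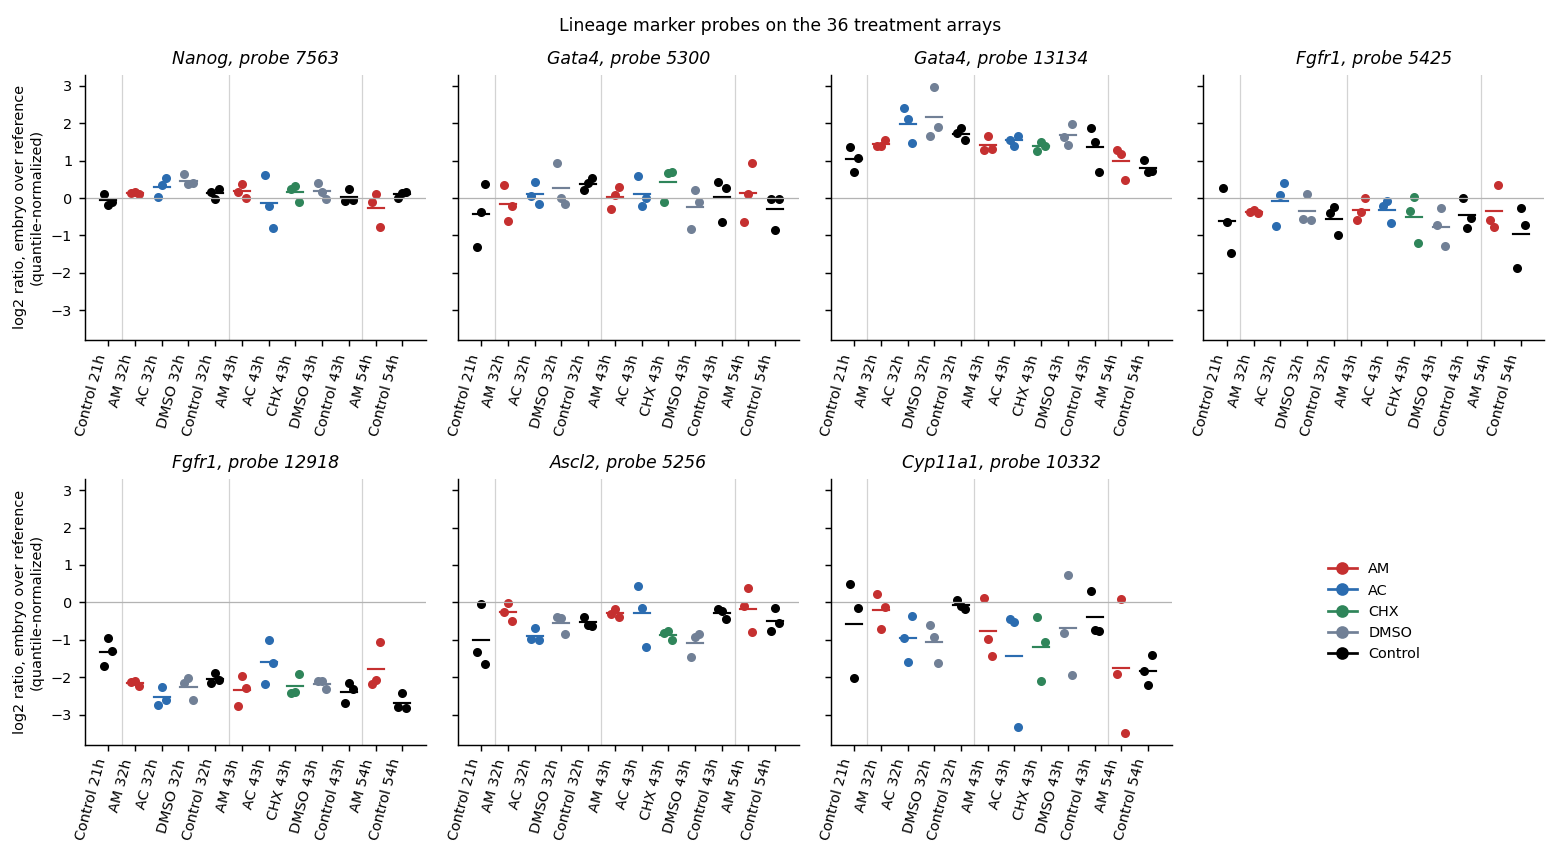
Log2 ratio of embryo over reference after quantile normalization (y axis) on the 36 treatment arrays, 1 panel per member probe, with groups ordered by hour and treated groups left of Control within each hour. Points are arrays and bars are means of 3 arrays; Fgfr1 12918 under AM at 54 h lies between -2.18 and -1.07, above the Control arrays of that hour.

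The genes whose pattern over the 28 stage arrays was most like that of each member were found by Pearson's r among probes of a single symbol. For Nanog they were Rnf13 (0.883), Pus10 (0.871) and Slc29a1 (0.851). For Gata4 13134 they were Pcnt (0.843), Pcf11 (0.836) and Tcf3 (0.814), and for Fgfr1 12918 Ubr4 (0.839), Lamp1 (0.834) and Coa5 (0.817). Ascl2 was most like Gpd2 (0.850), Fam168a (0.826) and Emc2 (0.808), while the highest values for Cyp11a1 were lower, with Celf2 at 0.699, Bmerb1 at 0.652 and Slamf1 at 0.602. These values describe arrays that share a reference channel and the array parts.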

How the data were processed

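The deposited values, 1 table of 22575 probes and 64 arrays, were read as log10 ratios because they are held at limits of -2 and 2, where 1.47% of them lie. No label states the base. Dyes, background correction and the authors' normalization were not stated in the labels. Each deposited log10 value was multiplied by -3.32 to give log2 of embryo over reference, the sign being likely but not settled. Stage arrays were used as deposited, since their medians span 0.242, and treatment arrays (span 0.533) were quantile-normalized.

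Each set was fitted in limma 3.58.1 (R 4.3.3) with 1 mean per group. Tests were moderated with eBayes, p-values were adjusted by Benjamini-Hochberg over all 22575 probes, and the threshold was an adjusted p of 0.05. The scripts were tested on simulated data. All member probes are named, for each list and comparison up to 4 called genes of largest difference, and for each member the 3 most correlated genes. The number of arrays limits the precision, and no counts stand behind the values. Correlations of the deviations of same-numbered arrays ran from -0.435 to 0.588, and no comparison had all of them over 0.1. They ran from 0.012 to 0.588 for 4-cell against 2-cell embryos. For 2-cell embryos against fertilized eggs they ran from -0.435 to -0.146, so some shared deviation remains possible. Alternatives were median centring, other normalization, blocks by array part and by replicate number, limits and zeros as missing, a filter, fits within array parts or of 2 groups alone, and leaving out each array. Members, lists and array parts were chosen with earlier results of these data known. Probe names come from the platform annotation, in which 6822 probes had several symbols and 11491 none here.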

Additional observations from a re-analysis of the deposited data

Results flagged for a closer look

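Fgfr1 probe 12918 had an array far from the others of its group in 2 stages. Unfertilized egg array 4 was at -2.57, while the other 3 egg arrays lay between -1.39 and -1.21, and this array is the only egg array of the second array part. The 2-cell array 4 was at -1.80, while the other 3 lay between -2.97 and -2.83, and it belongs to the first array part like all 2-cell arrays. Dixon's test was run on 49 groups of 4 arrays, and chance passes its limit in about 1 of 20 groups. What set these 2 arrays apart was not tested. The Fgfr1 values without these arrays are given with the stage comparisons.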

How the results depend on the processing

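Counts of the 7 member probes called were recomputed under 131 combinations of comparison and setting, of which 110 stayed within 1.5 times of the reported count, and under 166 that left out 1 array, of which 146 did. Counts of 0 that stayed 0 are among those that stayed, and 0 was the reported count in most comparisons. These shares therefore say little about the differences that were called. No member difference called in the reported fit changed direction, and the cause of the shifts was not tested. Some differences that were not called did change sign when 1 array was left out. Examples are Gata4 5300 between 8-cell and 4-cell embryos (-0.34 to 0.25) and Cyp11a1 for AM against Control at 54 h (-0.87 to 0.92). With the array part as a block the count was 1 for fertilized against unfertilized eggs, blastocysts against morulae, blastocysts against 8-cell embryos and blastocysts against unfertilized eggs, 0 for 8-cell and for morulae against 4-cell embryos, and 1 over the 7 stages (reported: 0, 0, 0, 2, 3, 1 and 4). These counts need not name the probes of the reported fit. For blastocysts against unfertilized eggs, Gata4 13134 lost its call with the array part as a block (limma adjusted p = 0.227). Nanog, the other probe reported there, passed in 3 of 16 alternatives. Within the first part the count was 1 for fertilized against unfertilized eggs and 0 for morulae against 4-cell embryos. Within the second part it was 1 for blastocysts against morulae, 8-cell embryos and unfertilized eggs. Quantile normalization gave 1 for fertilized against unfertilized eggs, 0 for 4-cell against 2-cell embryos and 1 for blastocysts against eggs, and took the call from Nanog at the 8-cell stage (0.71, limma adjusted p = 0.0557). Fits of 2 stages alone gave 0 for 4-cell against 2-cell embryos and 1 for blastocysts against 8-cell embryos and against eggs. Setting limits and zeros to missing, or leaving out probes mostly at them, gave 1 for blastocysts against eggs. Same-numbered arrays share only a number, and the replicate block gave 1 for AM against Control at 54 h (Fgfr1 12918, limma adjusted p = 0.0284), where 0 was reported, and changed no other count by over 1.5 times. Leaving out 1 array gave 0 to 1 for fertilized against unfertilized eggs, 4-cell against 2-cell embryos, morulae against 8-cell embryos, AM against Control at 54 h and AC against DMSO at 43 h, 0 to 2 for blastocysts against eggs and 1 to 2 for morulae against 4-cell embryos. The F test was not run with limits and zeros missing or on 2 groups alone. With 4 arrays per stage, differences between stages under about 0.5 to 1 log2 unit were mostly not resolved on the member probes. With 3 arrays per treatment group, larger ones could go unresolved, as for Cyp11a1 in Control embryos at 54 against 43 h.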
